A study of Mus musculus with 12 samples.

Results

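Enteric neurons and enteric glia were followed through 31 genes, chosen by name as markers of the nerve plexuses of the gut, among the 54532 genes counted in each of 12 mouse colon libraries. They comprised 16 genes that most neurons share, 9 genes of transmitters, peptides and neuron classes, 4 glial genes and 2 co-receptors of the GDNF family. All 31 were matched by symbol, and 30 of them passed the low-count filter, the exception being the calcium sensor Vsnl1. The libraries came from male C57BL/6 mice that were 6 weeks old on arrival, in 4 groups of 3. The Con group drank plain water and is labelled untreated, although the methods give its mice a vehicle by gavage. The DSS group drank 3% dextran sulfate sodium, which injures the colonic epithelium, for 5 days, and also received the vehicle. The UA+DSS group drank the same DSS and was given ursolic acid, a plant triterpenoid, at 200 mg per kg once a day for 7 days from 1 day before DSS. The DSS+UA group drank the same DSS and was given the same dose for 4 days, starting 3 days after DSS began. These days of gavage follow the methods, whereas the paper's discussion gives 9 days in UA+DSS and 5 days in DSS+UA. Each library held bulk colonic tissue, so fewer cells of a type and less RNA per cell cannot be told apart. The part of the colon that was taken is not given in the sources used here.

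The enteric nervous system lies in the myenteric plexus, between the layers of smooth muscle, and in the submucosal plexus beneath the mucosa. Its excitatory motor neurons use acetylcholine and the tachykinins encoded by Tac1, whereas its inhibitory motor neurons use nitric oxide made by the enzyme Nos1 and the peptide Vip. Enteric glia surround the neurons and carry S100b, the transcription factor Sox10 and, in amounts that vary with the state of the tissue, the intermediate filament Gfap. Both cell types arise from the neural crest, and GDNF acts on their progenitors through the receptor Ret with its co-receptor Gfra1.

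The libraries held between 15566216 and 19498383 counts, and levels are given as CPM, the counts of a gene relative to the total of its library after TMM scaling. Differences were tested by the quasi-likelihood test of edgeR over 17658 genes in all 12 libraries, and a gene is called raised or lowered at a Benjamini-Hochberg adjusted p under 0.05. Some libraries stood apart. The library DSS 3 held mRNA of the pancreas, with Ctrb1, a digestive protease gene, at 4279.9 CPM against 5.48 CPM at most in the others. The library DSS 2 had the highest sum of 6 leukocyte genes. A position score, the mean log2 CPM of 5 Hox genes of the distal end minus that of 6 Hox genes of the proximal end, was between -5.70 and -4.16 in UA+DSS, between 4.11 and 5.06 in DSS+UA and between 0.37 and 3.10 in DSS, so that these 3 groups did not overlap. Tissue position, as this score gives it, and treatment therefore cannot be told apart in the comparisons of UA+DSS and DSS+UA with DSS or with each other. In Con it was 5.53 in replicate 1, -3.03 in replicate 2 and -1.83 in replicate 3, so that the score differed widely within this group too.

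The stretches before the start site are shown for 6 members on which the results turn: Gfap and S100b, the glial genes that differed most from each other, Tac1 and Tubb3, which were raised in DSS, and Chat and Slc18a3, which share a locus. They come from RefSeq on GRCm38.p6 and are written 5′ to 3′ on the strand of the gene. Each begins 250 bases before the RefSeq start and ends before the first start of the gene that RefSeq or GENCODE places within the window, except that the Gfap run goes on to complete a match. The GENCODE start lies before the RefSeq start in Tac1, Tubb3 and Chat, so these runs are shorter. Capitals mark matches, on either strand, to TGACG, the core of the cAMP response element, or to TTCNNNGAA, the letters that STAT factors bind. Gfap is chr11:102897194-102897450 on the minus strand, and S100b is chr10:76253586-76253835 on the plus strand. Tac1 is chr6:7554811-7554878 and Tubb3 is chr8:123411303-123411423, both on the plus strand. Chat is chr14:32465990-32466159 and Slc18a3 is chr14:32464851-32465100, both on the minus strand, and the second run lies inside the Chat gene and in part over an exon of Gm2990, an antisense RNA.
Gfap: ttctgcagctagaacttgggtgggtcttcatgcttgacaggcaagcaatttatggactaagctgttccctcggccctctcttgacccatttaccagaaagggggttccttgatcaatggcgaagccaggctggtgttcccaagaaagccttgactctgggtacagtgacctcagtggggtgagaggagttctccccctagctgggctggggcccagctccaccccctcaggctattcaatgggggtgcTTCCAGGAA
S100b: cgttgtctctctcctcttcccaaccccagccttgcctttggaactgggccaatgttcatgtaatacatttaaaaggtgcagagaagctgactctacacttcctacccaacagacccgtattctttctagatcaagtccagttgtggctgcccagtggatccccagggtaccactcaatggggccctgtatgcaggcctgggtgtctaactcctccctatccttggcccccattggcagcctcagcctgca
Tac1: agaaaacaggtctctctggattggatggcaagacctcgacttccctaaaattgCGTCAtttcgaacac
Tubb3: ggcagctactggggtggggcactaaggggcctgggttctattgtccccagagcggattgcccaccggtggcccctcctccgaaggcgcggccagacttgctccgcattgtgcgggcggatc
Chat: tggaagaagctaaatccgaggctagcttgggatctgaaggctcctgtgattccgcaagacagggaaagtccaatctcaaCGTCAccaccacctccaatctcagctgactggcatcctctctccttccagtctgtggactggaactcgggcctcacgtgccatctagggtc
Slc18a3: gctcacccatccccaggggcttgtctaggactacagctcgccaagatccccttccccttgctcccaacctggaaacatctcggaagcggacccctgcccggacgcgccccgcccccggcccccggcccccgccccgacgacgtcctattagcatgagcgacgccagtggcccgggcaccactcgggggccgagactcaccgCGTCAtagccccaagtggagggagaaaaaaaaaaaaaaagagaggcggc
In Gfap the match TTCCAGGAA spans the RefSeq start, which lies inside the longer gene model. A further TGACG match of Tac1, at position -43 from its RefSeq start, lies beyond the run shown. Over windows from 250 bases before to 50 after the start, TTCNNNGAA was found in 2 of the 20 members that had a window, Gfap and Scg2. Some members had more than 1 window, and 2 of the 25 member windows held it, beside 8.30% of all windows. TGACG was found in 9 of the 20, namely Chat, Elavl4, Gal, Hand2, Nos1, Scg2, Slc18a3, Tac1 and Vip. It was in 11 of the 25 member windows and in 20.8% of all windows. The 11 include 2 overlapping windows of Elavl4 that hold the same match. ACAAAG, which SOX factors bind, was found in 1 of the 20, Syt1, in 1 of the 25 member windows and in 18.7% of all windows. A match of letters is a description of the sequence only.

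All 31 genes had counts in 11 of the libraries, and 29 had counts in DSS+UA 3, where Chat and Vsnl1 were at 0. The neuronal RNA-binding protein Elavl4 was read in every library, from 15 to 116 counts, and so were Sox10, from 17 to 91 counts, and S100b, from 8 to 59 counts. Per kilobase of exon, averaged over the 12 libraries, the neuropeptide Vip had the highest level of the members at 13.9 CPM per kilobase. Galanin (Gal) at 9.29, Tac1 at 9.23 and the enkephalin precursor Penk at 8.74 CPM per kilobase came next. The lowest were Elavl3 at 0.186, Chat at 0.123 and Vsnl1 at 0.103 CPM per kilobase. Among the glial genes Gfap stood at 1.82, S100b at 1.15, the cell adhesion gene Cdh19 at 1.03 and Sox10 at 0.901 CPM per kilobase. Myh11, the myosin of smooth muscle, stood at 49.7 CPM per kilobase.

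**Figure D1:**
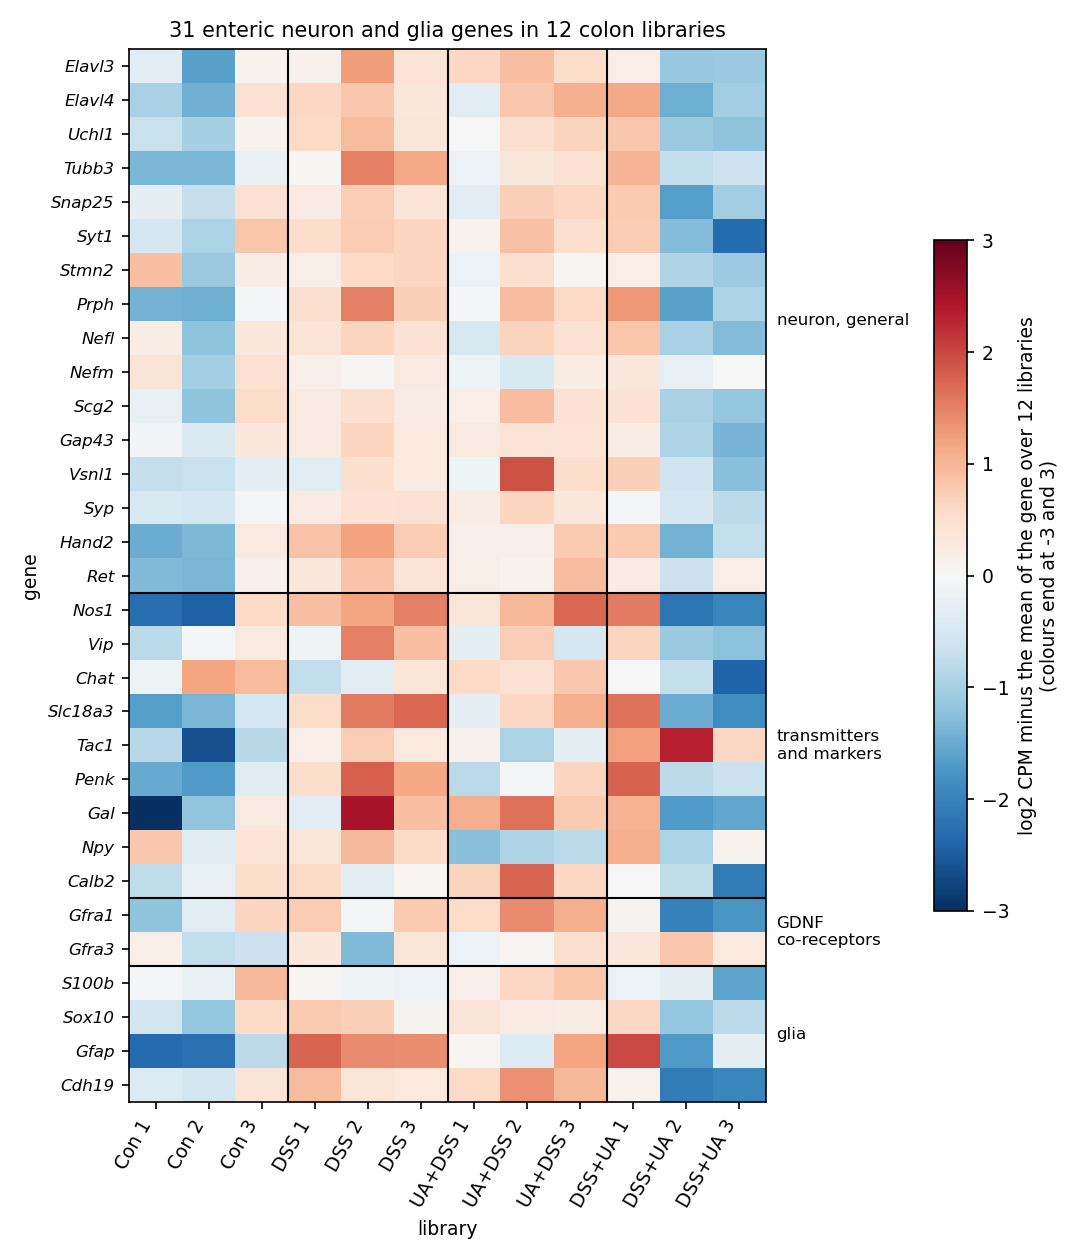
Heat map of the 31 genes in the 12 libraries, with libraries on the horizontal axis and genes on the vertical axis, coloured by log2 CPM minus the mean of the gene over all libraries. Con 1, Con 2, DSS+UA 2 and DSS+UA 3 are below the mean for most genes, and the 3 DSS libraries and DSS+UA 1 are above it for most.

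DSS against Con shows how the genes of the enteric nervous system differed in colitis. Of the 30 members tested, 4 were raised and none was lowered: the glial filament Gfap, the neuronal tubulin Tubb3 and the peptide precursors Tac1 and Penk. This is 13.3% of the members, beside 26.5% of all genes called in either direction and 13.9% of all genes raised, so the share was not above the background. In DSS 28 of 30 had the higher fitted level, with a median log2 fold change of 0.75 beside -0.03 over all genes. In 13 of 30 the groups did not overlap, with DSS above Con in each, whereas 41.3% of all genes did not overlap in either direction and 21.2% were above. The exceptions to the direction were Chat and S100b.

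Gfap had the largest fold change of the members. It stood at 0.879, 0.943 and 2.78 CPM in Con and at 16.7, 13.2 and 12.9 CPM in DSS. Every DSS library was above every Con library, with a mean of 14.3 ± 2.11 against 1.53 ± 1.08 CPM (SD, n = 3 each). The log2 fold change was 3.21 ± 0.88 (SE), with an adjusted p of 0.0231 in edgeR.

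The other glial genes were not called. S100b, a calcium-binding protein widely used to stain enteric glia, stood at 1.4999, 1.33 and 3.15 CPM in Con and at 1.59, 1.40 and 1.37 CPM in DSS, so that the groups overlapped (log2 fold change -0.45 ± 0.46 SE, adjusted p = 0.482 in edgeR). Sox10 stood at 1.66, 1.05 and 3.74 CPM in Con and at 4.38, 4.11 and 2.64 CPM in DSS, again with overlap (0.78 ± 0.54 SE, adjusted p = 0.294 in edgeR). Cdh19 ranged from 2.39 to 4.71 CPM in Con and from 4.38 to 7.02 CPM in DSS. The Gfap level divided by the S100b level was 0.586, 0.708 and 0.881 in Con and 10.5, 9.43 and 9.38 in DSS, far above Con in each library. The Gfap level divided by the Sox10 level was 0.531, 0.895 and 0.743 in Con and 3.81, 3.22 and 4.88 in DSS.

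Among the genes that most neurons share, 1 of 15 tested, Tubb3, was raised, which is 6.67% beside 13.9% of all genes raised. Its level was 2.79, 2.83 and 6.36 CPM in Con and 7.60, 21.6 and 16.5 CPM in DSS. The groups did not overlap, although the gap between Con 3 and DSS 1 was small (log2 fold change 1.93 ± 0.56 SE, adjusted p = 0.0269 in edgeR). The receptor Ret (1.23 ± 0.43 SE), the transcription factor Hand2 (1.59 ± 0.59 SE), the peripheral neuron filament Prph (1.83 ± 0.71 SE) and the synaptic vesicle protein Syp (0.72 ± 0.28 SE) were at an unadjusted p under 0.05 in edgeR but not called, with adjusted p from 0.0541 to 0.0807. In all 9 members were at such a p, beside 40.6% of all genes. Their DSS libraries were each above all Con libraries. Elavl4 stood at 1.34, 0.943 and 3.80 CPM in Con and at 4.28, 4.91 and 3.49 CPM in DSS, where Con 3 lay within the DSS range (1.06 ± 0.72 SE, adjusted p = 0.288 in edgeR). Elavl3, a relative of Elavl4, and Uchl1, the pan-neuronal ubiquitin hydrolase, had log2 fold changes of 1.24 and 1.12 and did not pass. The synaptic genes Snap25 and Syt1, the growth-associated genes Gap43 and Stmn2, the granin Scg2 and the neurofilaments Nefl and Nefm had log2 fold changes between 0.06 and 0.65 and did not pass either. Exons of Nefl and Nefm overlap by 1108 bases on opposite strands, and whether the counting used strand is not given in the sources used here, so their reads cannot be assigned with certainty.

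Of the 9 genes of transmitters and neuron classes, 2 were raised, which is 22.2%. Over all genes 13.9% were raised and 26.5% were called in either direction. Penk stood at 3.62, 3.16 and 8.13 CPM in Con and at 15.1, 36.8 and 23.4 CPM in DSS, with every DSS library above every Con library (log2 fold change 2.33 ± 0.73 SE, adjusted p = 0.0393 in edgeR). Tac1 stood at 12.4, 3.55 and 12.5 CPM in Con and at 25.7, 37.6 and 27.4 CPM in DSS, again without overlap (1.67 ± 0.53 SE, adjusted p = 0.0391 in edgeR). Tac1 is also made by enterochromaffin cells of the epithelium. The summed level of 8 enteroendocrine genes was 486.9 to 644.4 CPM in Con and 353.0 to 896.8 CPM in DSS, and none of the 8 was called. Their part in the Tac1 result was not tested.

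Nos1 stood at 1.14, 0.998 and 9.14 CPM in Con and at 11.3, 13.8 and 17.3 CPM in DSS. Con 3 lay close to the DSS libraries and the other Con libraries far below, and the gene did not pass (1.90 ± 1.07 SE, adjusted p = 0.205 in edgeR). Vip, which shares neurons with Nos1, stood at 23.1, 39.5 and 48.7 CPM in Con and at 37.3, 115 and 74.9 CPM in DSS, with overlap (1.03 ± 0.58 SE, adjusted p = 0.208 in edgeR). Gal ranged from 3.56 to 24.998 CPM in DSS, and calretinin (Calb2) and neuropeptide Y (Npy) had log2 fold changes of 0.22 and 0.34. None of these 5 was called in edgeR without a covariate. DESeq2 called Gal, as did edgeR with the position score as a covariate, beside 32.3% and 30.5% of all genes.

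The acetylcholine genes differed from each other. Chat, which encodes the enzyme that makes acetylcholine, stood at 0.414, 1.22 and 1.02 CPM in Con and at 0.241, 0.351 and 0.634 CPM in DSS. Slc18a3, the vesicular acetylcholine transporter whose gene lies inside the Chat gene, stood at 0.207, 0.277 and 0.588 CPM in Con and at 1.35, 2.86 and 3.17 CPM in DSS. The first had overlapping groups and the second did not, and neither passed the test (Chat -1.10 ± 0.73 SE with an adjusted p of 0.279, Slc18a3 2.76 ± 0.96 SE with an adjusted p of 0.0537, both in edgeR). Chat is also a gene of tuft cells, a chemosensory epithelial cell. The tuft cell channel Trpm5 was lowered in DSS, from 4.29, 18.5 and 13.2 CPM in Con to 1.40, 1.70 and 1.21 CPM, and 2 of 4 tuft genes were lowered in all. The summed level of the 4 was 19.2 to 55.6 CPM in Con and 32.9 to 34.3 CPM in DSS. The part of tuft cells in the Chat counts, which were 22 at most in a library, was not tested.

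**Figure D2:**
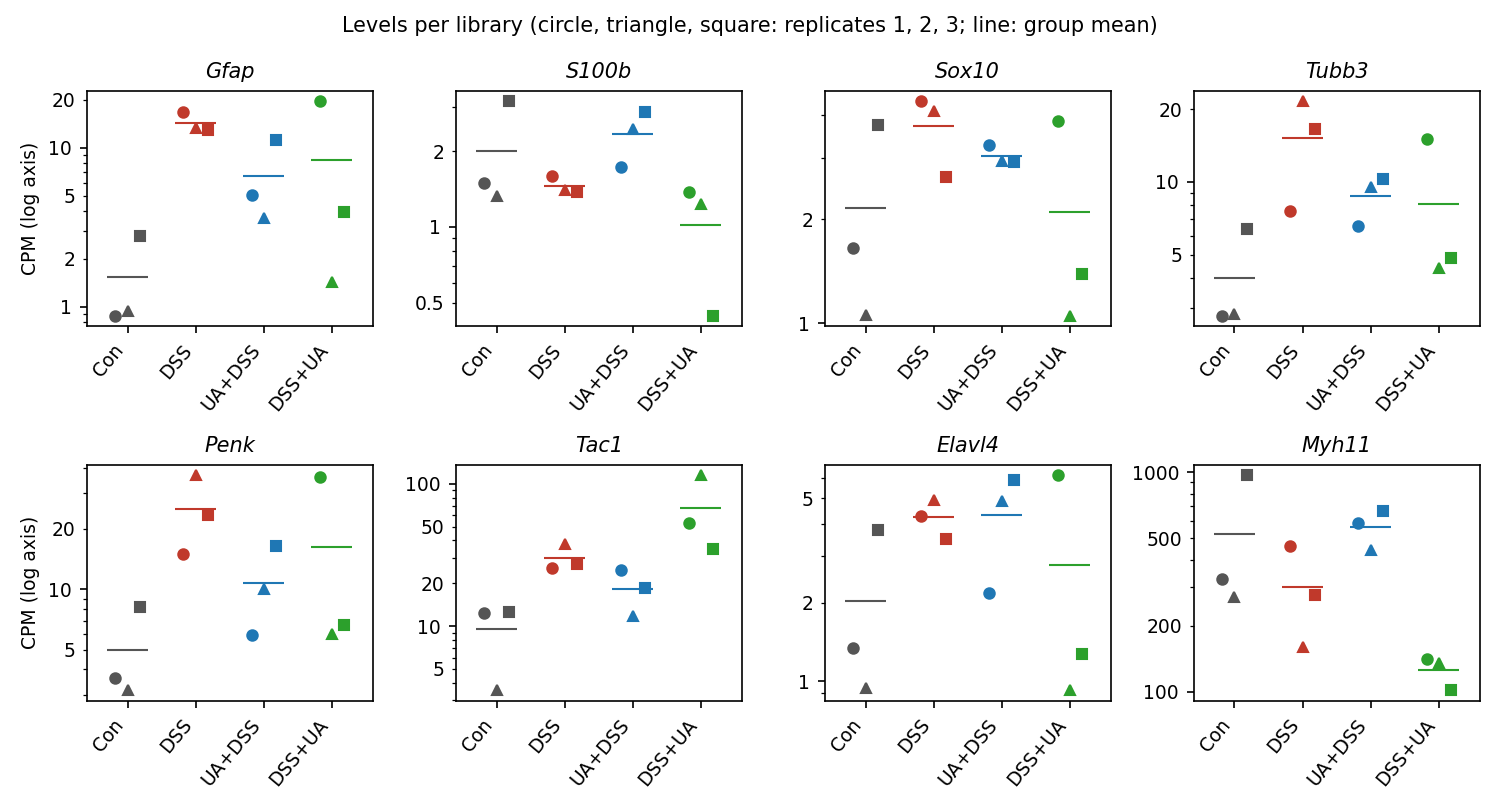
CPM on a log axis for 8 genes, with 1 panel per gene, groups on the horizontal axis, 1 point per library and a line at the group mean. For Gfap, Tubb3, Penk and Tac1 each DSS point lies above each Con point, while S100b overlaps, and Myh11 is lowest in DSS+UA.

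The 4 calls depended on single libraries. Without Con 1 or without Con 2 none of the 30 members was called in edgeR, beside 21.5% and 15.8% of all genes. Without Con 3 there were 5 calls beside 22.1%, and the median log2 fold change of the members was 1.33. Without DSS 1 there were 2 beside 16.9%. Without DSS 2, or without DSS 3 with its pancreatic mRNA, there was 1, which was Gfap in both, beside 19.2% and 23.4%. Without DSS+UA 1 there were 7 and without DSS+UA 2 there were 8, beside 24.9% and 25.7%. DESeq2 called 10 members and limma-voom 7, all raised in DSS, beside 32.3% and 26.1% of all genes in either direction. Gfap was called in 18 of 22 alternatives, Tubb3 in 16, Penk in 14 and Tac1 in 9, and the fold change of each kept its direction in all 22. Markers of other cells moved with the groups. All 6 leukocyte genes were raised, from a summed 122.1 to 301.7 CPM in Con to between 1431.0 and 15658.5 CPM in DSS, and all 4 fibroblast genes were raised. The 10 smooth muscle genes had a median log2 fold change of -0.87 and none was called. All 8 epithelial genes had the lower fitted level, with a median log2 fold change of -0.66, and 1, Epcam, was called, while their sum went from between 13093.8 and 18326.6 CPM in Con to between 7353.1 and 11973.1 CPM in DSS. All 3 mesothelial genes tested were raised, with a median log2 fold change of 4.04, and the 4 listed summed to between 0.222 and 1.12 CPM in Con and to between 8.19 and 52.8 CPM in DSS. The part of these cells in the results was not tested.

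UA+DSS against DSS asks what differed under early ursolic acid. Of 30 members 1 was called, beside 18.7% of all genes. Npy, a neuropeptide of submucosal and sympathetic nerves, was lowered: it stood at 0.625, 1.00 and 0.740 CPM in DSS and at 0.128, 0.187 and 0.213 CPM in UA+DSS. The groups did not overlap (log2 fold change -2.11 ± 0.66 SE, adjusted p = 0.0460 in edgeR), but the UA+DSS libraries held only 2 to 4 counts of Npy. The call was made in 6 of 21 alternatives. It was lost, leaving 0 members called, without any 1 of the DSS or UA+DSS libraries, where from 1% (without UA+DSS 2) to 19.7% (without DSS 3) of all genes were called, and also without Con 2, Con 3 or DSS+UA 3. The adjusted p was 0.0277 to 0.136 over the alternatives without a covariate and 0.349 at most with one.

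The other members did not pass, with the smallest adjusted p among them at 0.217 for Calb2 in edgeR. The median log2 fold change over the 30 was -0.16 beside -0.02 over all genes, with 10 higher and 20 lower, and the groups did not overlap in 6 members beside 42.8% of all genes. This median was -0.63 with Myh11 as a covariate, with 3 higher, and -0.49 with the position score, with 9 higher, where no member was called beside 5.03% and 0.017% of all genes. Without UA+DSS 1 it was 0.016, with 15 higher, and no member was called beside 10.6%. Gfap stood at 5.07, 3.62 and 11.1 CPM in UA+DSS, all under the lowest DSS library (-1.11 ± 0.80 SE, adjusted p = 0.362 in edgeR). S100b stood at 1.73, 2.44 and 2.87 CPM, all above the highest DSS library (0.69 ± 0.46 SE, adjusted p = 0.318 in edgeR). The Gfap to S100b ratio was 2.93, 1.49 and 3.87, between those of Con and DSS with no overlap with either. The Gfap to Sox10 ratio was 1.55, 1.23 and 3.80, above each Con library. It overlapped DSS, where it was 3.81, 3.22 and 4.88.

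Penk at 5.90, 10.1 and 16.3 CPM overlapped DSS, as did Tubb3 at 6.54, 9.50 and 10.3 CPM, while Tac1 at 24.6, 11.7 and 18.7 CPM lay below each DSS library. Elavl4 stood at 2.18, 4.87 and 5.85 CPM, with a log2 fold change of 0.03 ± 0.70 (SE). Sox10 at 3.27, 2.94 and 2.92 CPM, Nos1 at 7.70, 11.9 and 20.04 CPM and Vip at 33.5, 67.0 and 28.6 CPM overlapped DSS as well. Chat stood at 0.770, 0.687 and 0.904 CPM, above each DSS library, without passing the test. Trpm5 was raised beside it, to 7.76, 7.81 and 7.18 CPM. Of the leukocyte genes 5 of 6 were lowered against DSS, to a summed 257.0 to 472.4 CPM, and of the fibroblast genes 3 of 4. All 10 smooth muscle genes had the higher fitted level and none was called, and the part of these cells was not tested.

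DSS+UA against DSS asks the same of the later treatment. None of 30 members was called in edgeR, beside 7.54% of all genes, and 6 were at an unadjusted p under 0.05 beside 29.9%. DESeq2 called 2, Cdh19 and Syp, both lowered, beside 17.7% of all genes, and limma-voom called none beside 6.52%. In DSS+UA 28 of 30 members had the lower fitted level, and the median log2 fold change was -0.83 beside 0.02 over all genes. With library size as the only scaling these medians were -0.92 and -0.11, and over all genes 140 were then raised and 1003 lowered, where TMM scaling gave 448 and 883. The groups did not overlap in 5 members, Ret, Cdh19, Gap43, Syp and S100b, all below DSS, beside 34.7% of all genes. Myh11 lay below each DSS library too (log2 fold change -1.25 ± 0.49 SE, adjusted p = 0.116 in edgeR), and with it as a covariate the median of the members was -0.48, with 7 of 30 higher. All 8 epithelial genes had the higher fitted level in DSS+UA, with a median log2 fold change of 0.92, and 4, Krt8, Lgals4, Krt19 and Cldn7, were raised. Their part in the members' lower levels was not tested.

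The 3 DSS+UA libraries were unlike each other. Elavl4 stood at 6.11 CPM in DSS+UA 1 and at 0.928 and 1.28 CPM in the others. Nos1 stood at 17.8, 1.24 and 1.44 CPM, and Gfap at 19.6, 1.42 and 3.94 CPM. Replicate 1 was thus among the high libraries of the series, and replicates 2 and 3 were near Con 1 and Con 2. Penk stood at 36.2, 6.00 and 6.65 CPM, Tubb3 at 15.1, 4.39 and 4.82 CPM and Vip at 63.3, 18.5 and 17.0 CPM. Sox10 stood at 3.84, 1.05 and 1.39 CPM and S100b at 1.37, 1.24 and 0.444 CPM. Without DSS+UA 1, 8 members were called lowered against DSS, namely Prph, Uchl1, Snap25, Syt1, Gfra1, Cdh19, Gap43 and Slc18a3, beside 5.24% of all genes in that fit, and the median log2 fold change was -1.77. Without DSS+UA 2 or DSS+UA 3 none was called, beside 0.775% and 0.137% of all genes.

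Tac1 did not follow the other neuron genes in DSS+UA. It stood at 53.2, 115 and 34.8 CPM, highest in replicate 2, in which Elavl4 was lowest. Against Con it was raised (log2 fold change 2.83 ± 0.55 SE, adjusted p = 0.00955 in edgeR) and the groups did not overlap, and against DSS it was not called (1.16 ± 0.51 SE, adjusted p = 0.159 in edgeR). The 8 enteroendocrine genes summed to 530.6, 596.0 and 567.1 CPM in these libraries. None of the 8 was called in DSS+UA against Con or against DSS, beside 18.1% and 7.54% of all genes. In UA+DSS against DSS+UA, where Tac1 was called, 3 of the 8 were raised and 1 was lowered, which is 50% beside 16.8%. These were Chgb, Insl5, Chga and Tph1, and their part in the Tac1 levels was not tested. Tac1 was the 1 member called in DSS+UA against Con, beside 18.1% of all genes. This call was lost with Myh11 or the position score as a covariate, where the adjusted p was 0.0904 at most and 0.0623% and 12.3% of all genes were called. Of the 10 smooth muscle genes 5 were lowered in DSS+UA against Con, which is 50%, and their part was not tested. In UA+DSS against Con no member was called in edgeR, beside 0.00566% of all genes, and 6 were at an unadjusted p under 0.05 beside 12.1%. Neither DESeq2 nor limma-voom called a member there, beside 2.13% and 0% of all genes.

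**Figure D3:**
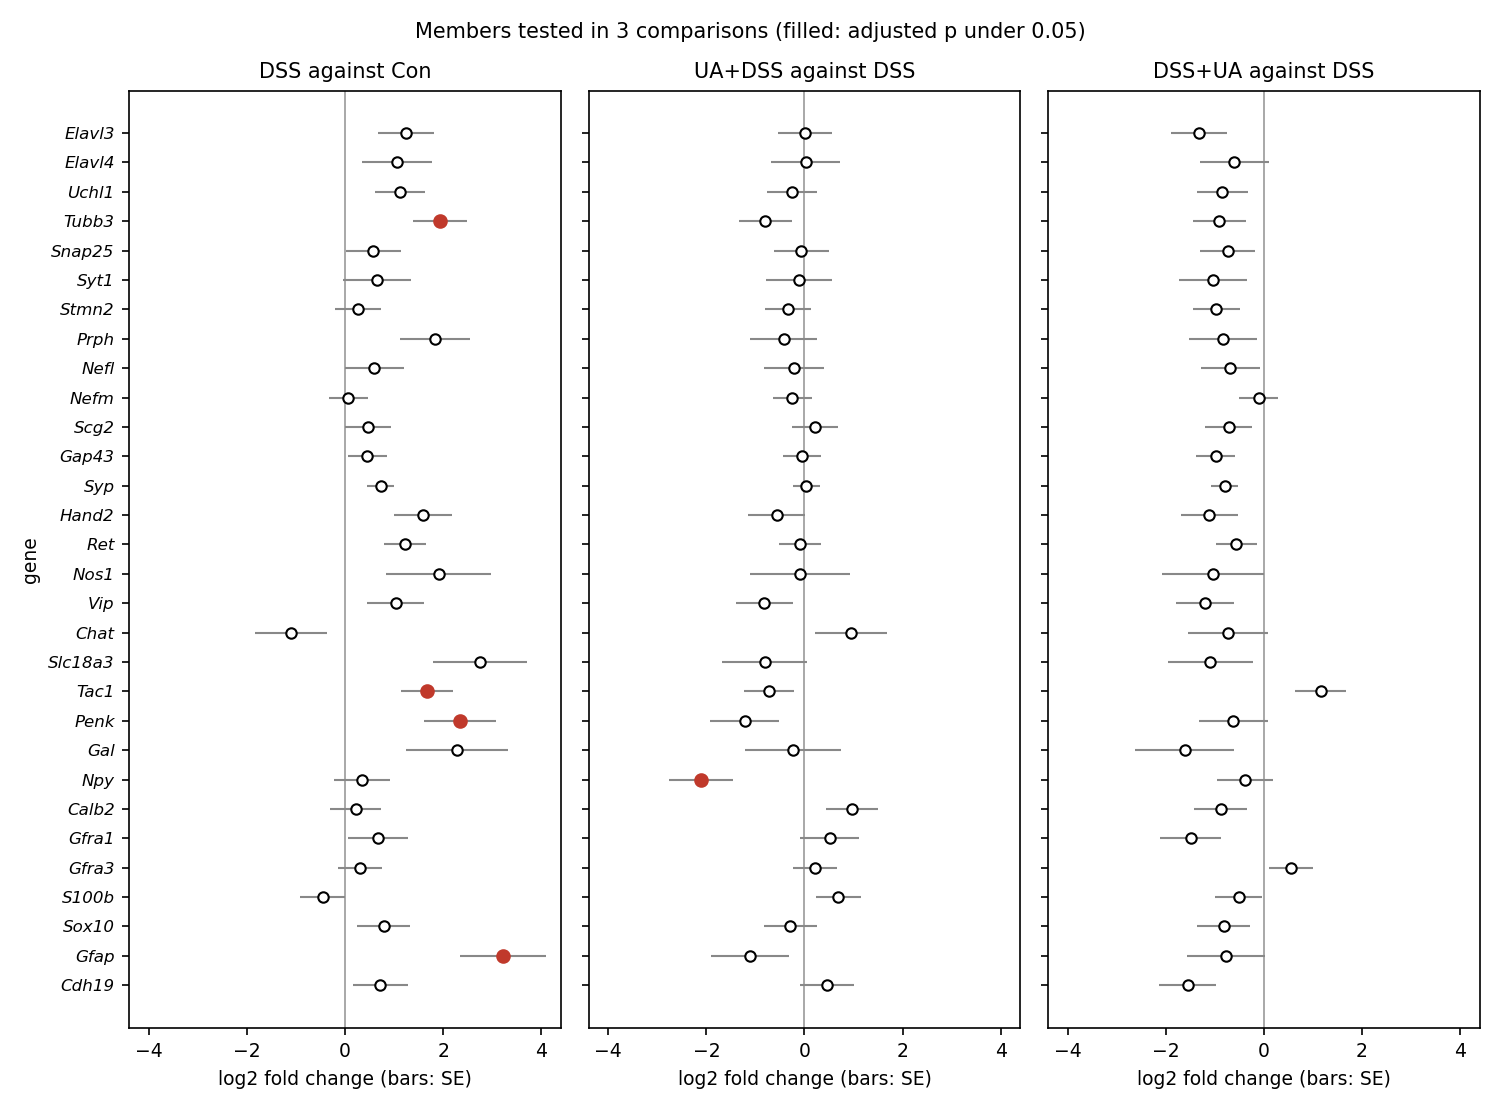
Log2 fold change with its SE for the 30 members tested, in DSS against Con, UA+DSS against DSS and DSS+UA against DSS, with genes on the vertical axis and filled points where the adjusted p was under 0.05. In the first panel 28 of 30 points lie above 0, in the second 10 and in the third 2, and 4, 1 and 0 points are filled.

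UA+DSS against DSS+UA compares the times of treatment directly. Of 30 members 4 were called, beside 16.8% of all genes: Tac1 was lower in UA+DSS (log2 fold change -1.88 ± 0.53 SE), and Calb2 (1.85 ± 0.54 SE), Gfra1 (2.005 ± 0.63 SE) and Cdh19 (2.01 ± 0.58 SE) were higher, with adjusted p from 0.0352 to 0.0497 in edgeR. Calb2 stood at 11.6, 24.6 and 11.3 CPM in UA+DSS and at 7.27, 4.27 and 1.61 CPM in DSS+UA. Gfra1 stood at 5.32, 9.75 and 7.76 CPM in UA+DSS and at 3.84, 0.804 and 0.998 CPM in DSS+UA. Cdh19 stood at 5.32, 9.43 and 7.23 CPM in UA+DSS and at 3.84, 0.742 and 0.832 CPM in DSS+UA. None of these groups overlapped. The position scores of the groups did not overlap either, and Myh11, given with the muscle values, was higher in each UA+DSS library. Of the 10 smooth muscle genes 6 were called, all higher in UA+DSS, which is 60% beside 16.8% of all genes. They were Myh11, Des, Myl9, Synpo2, Lmod1 and Tagln, and their part in the results was not tested. With Myh11 or the position score as a covariate, none of the 30 members was called, beside 0.00566% of all genes with Myh11 and 0% with the position score. The median log2 fold change over the members went from 0.61 to -0.17 with Myh11 and to 0.10 with the position score. No member was called without UA+DSS 1, 2 or 3, where 7.9%, 3.07% and 9.04% of all genes were. Without DSS+UA 1 there were 8 calls beside 9.31% of all genes, without DSS+UA 2 or DSS+UA 3 there was 1 beside 11.4% and 5.1%, and without Con 2 or DSS 3 there were 2 beside 14.1% and 15.8%.

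The co-receptors differed from each other. Gfra1, the partner of Ret for GDNF, ranged from 1.4999 to 5.67 CPM in Con and from 3.51 to 6.34 CPM in DSS. Gfra3, the co-receptor for artemin, ranged from 1.997 to 3.88 CPM in Con and from 1.30 to 4.38 CPM in DSS. Neither passed in DSS against Con. In DSS+UA Gfra3 stood at 4.37, 6.06 and 4.21 CPM, above every Con library (0.87 ± 0.45 SE, adjusted p = 0.190 in edgeR), while the group mean of Gfra1 was lowest there.

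Neurons were set against glia as the mean log2 CPM of the 25 neuron genes and of the 4 glial genes in each library, as a description without a test. The neuron mean was 1.39, 1.10 and 2.35 in Con, 2.43, 3.05 and 2.76 in DSS, 2.16, 2.72 and 2.66 in UA+DSS, and 2.90, 1.21 and 1.08 in DSS+UA. The glial mean was 0.74, 0.53 and 1.86 in Con, 2.46, 2.16 and 1.97 in DSS, 1.86, 2.03 and 2.39 in UA+DSS, and 2.21, 0.26 and 0.41 in DSS+UA. Both means were low in the same 4 libraries, Con 1, Con 2, DSS+UA 2 and DSS+UA 3, and higher in the other 8. The difference, neurons minus glia, averaged 0.57 ± 0.08 in Con, 0.55 ± 0.51 in DSS, 0.42 ± 0.23 in UA+DSS and 0.77 ± 0.16 in DSS+UA (SD, n = 3 each). The group means differed by -0.02 for DSS against Con, by -0.13 for UA+DSS against DSS and by 0.22 for DSS+UA against DSS. Each was smaller than the SD of the DSS group, which was the widest, but the 0.22 was larger than the SD of the DSS+UA group. The glial mean holds Gfap, whose values differed from those of the other glial genes.

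**Figure D4:**
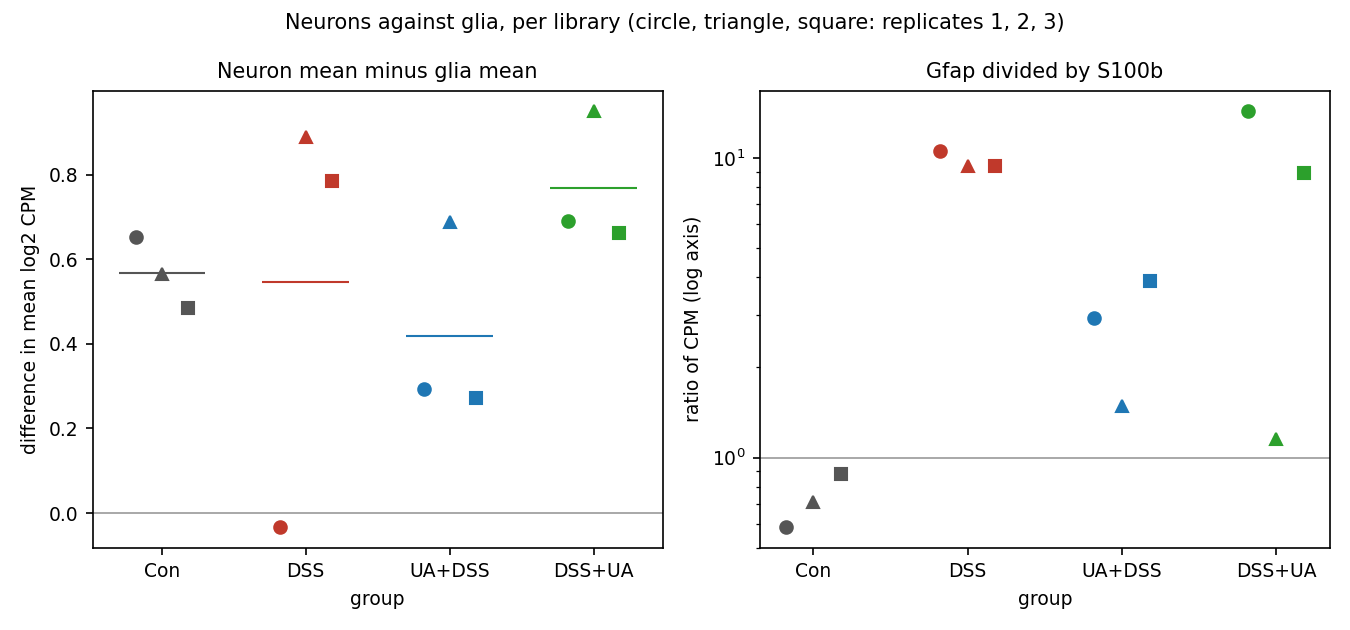
Left, mean log2 CPM of 25 neuron genes minus that of 4 glial genes, with 1 point per library and a line at the group mean. Right, the ratio of Gfap to S100b in CPM on a log axis, which is at most 0.881 in the 3 Con libraries and from 9.38 to 10.5 in the 3 DSS libraries, while the DSS+UA libraries range from 1.15 to 14.3.

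Myh11 was used as a measure of how much of the muscle layer each piece of tissue held. It stood at 325.8, 269.8 and 968.6 CPM in Con, at 460.6, 160.5 and 275.7 CPM in DSS, at 586.8, 440.6 and 664.5 CPM in UA+DSS and at 140.2, 134.5 and 101.7 CPM in DSS+UA. In Con the library with the most Myh11, replicate 3, also had the highest neuron and glial means. In DSS the order was the other way for neurons: DSS 2 had the least Myh11 and the highest neuron mean, and DSS 1 the most Myh11 and the lowest neuron mean. In DSS+UA the 3 libraries had similar Myh11, yet the neuron mean of replicate 1 was above those of replicates 2 and 3 by more than the range of Con.

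A slope of each gene on log2 Myh11 within the 4 groups was fitted in edgeR. The slope was above 0 for 27 of the 30 members, with a median of 0.34, beside 51.0% of all genes and a median of 0.00 over all genes. None of the 30 passed, and none was at an unadjusted p under 0.05 in edgeR, the tool used for this slope, beside 4.11% of all genes. The steepest were Nos1 (1.27 ± 0.62 SE), Gfap (0.85 ± 0.49 SE) and Elavl4 (0.65 ± 0.43 SE), and those below 0 were Vip (-0.15 ± 0.39 SE), Npy and Stmn2. Over all genes 2 were called, which is 0.0113%.

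With Myh11 in the model, DSS against Con gave a median log2 fold change of 1.27 over the members and 3 calls, Gfap, Hand2 and Ret, beside 21.1% of all genes. The log2 fold change of Gfap was then 4.04 ± 0.93 (SE), with an adjusted p of 0.0173 in edgeR. Tubb3 (2.17 ± 0.73 SE), Penk (2.74 ± 0.95 SE) and Tac1 (1.96 ± 0.63 SE) had adjusted p from 0.0520 to 0.0662 in edgeR in that model.

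**Figure D5:**
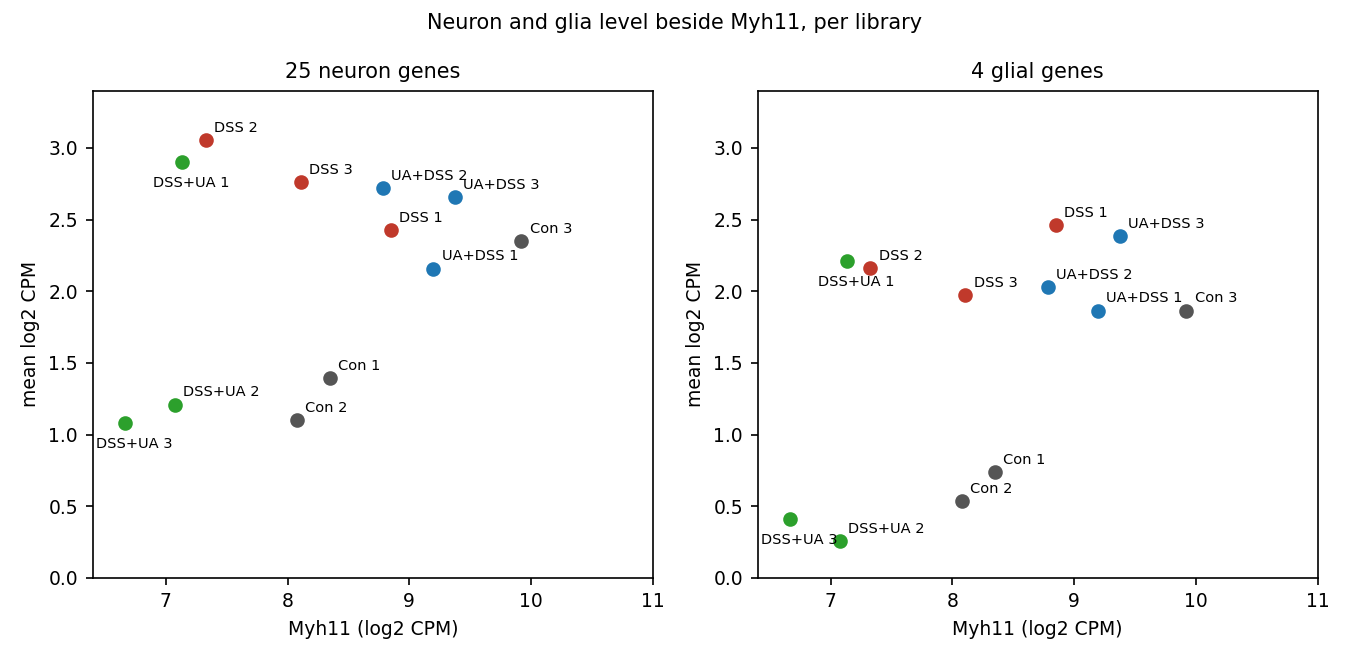
Mean log2 CPM of 25 neuron genes (left) and of 4 glial genes (right) against log2 CPM of Myh11, with 1 labelled point per library, coloured by group. Con 1, Con 2, DSS+UA 2 and DSS+UA 3 lie low in both panels, and DSS+UA 1 lies high at nearly the same Myh11 as DSS+UA 2.

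Within groups 1 library was often highest for most members. Con 3 was the highest of the Con libraries for 27 of 31 members, the exceptions being Stmn2, Chat, Npy and Gfra3, which is 86.7% of those tested beside 29.2% of all genes. DSS+UA 1 was the highest of its group for 29 of 31, the exceptions being Tac1 and Gfra3, which is 93.3% of those tested beside 37.2% of all genes. In DSS the neurons and glia differed in this respect: DSS 2 was highest for 18 of 25 neuron genes and for none of the 4 glial genes, all of which were highest in DSS 1. Over all genes DSS 2 was highest for 34.8% and DSS 1 for 29.4%. In UA+DSS no library was highest for more than 15 of the 31, the count of UA+DSS 3, which is 50% of those tested beside 30.6% of all genes. The libraries that were highest differed in muscle genes. The 10 smooth muscle genes summed to 4232.7 CPM in Con 3 against 1553.0 CPM at most in the other Con libraries, but to 716.0 CPM in DSS+UA 1 against 1090.2 and 572.9 CPM in DSS+UA 2 and 3.

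Other genes of the same pathways were read from lists. Over all genes, 26.5% were called in DSS against Con, 18.7% in UA+DSS against DSS and 7.54% in DSS+UA against DSS. Of 25 further neuron genes tested, none was raised in DSS against Con and 1 was lowered, the adhesion molecule L1cam (log2 fold change -0.94), with a list median of 0.79. Of 10 further transmitter genes tested, 1 was lowered, the acetylcholine-splitting enzyme Ache (-0.94). Of 10 further glial genes, 1 was lowered, Erbb3 (-1.46), which is the neuregulin receptor of glia and is also made by epithelium. Of 3 genes of the pacemaker cells that link nerve and muscle, 2 were lowered, the chloride channel Ano1 (-1.18) and the receptor Kit (-1.21). In UA+DSS against DSS both L1cam (1.13) and Erbb3 (1.76) were raised, and no further transmitter gene was called. In DSS+UA against DSS the glial sodium channel Scn7a was lowered (-1.68), and no further neuron or transmitter gene was called.

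Of 14 trophic genes tested, 3 were raised and 1 was lowered in DSS against Con, which is 28.6% beside 26.5% of all genes called. Nrg1, the ligand of Erbb3, stood at 4.71, 4.38 and 7.49 CPM in Con and at 39.4, 91.9 and 64.1 CPM in DSS, without overlap (log2 fold change 3.56 ± 0.42 SE, adjusted p = 0.00132 in edgeR). Ednrb, the endothelin receptor through which Edn3 acts on neural crest progenitors, stood at 12.5, 13.0 and 15.3 CPM in Con and at 41.5, 56.6 and 44.95 CPM in DSS, again without overlap (1.81 ± 0.21 SE, adjusted p = 0.00132 in edgeR). Artn, the ligand of Gfra3, was raised (1.39) and the neurotrophin Ntf3 was lowered (-1.34). Nrg1 was lowered against DSS in UA+DSS (-2.20) and in DSS+UA (-2.27), and Ednrb likewise (-1.46 and -2.02). Ece1, which activates endothelins, was also lowered in DSS+UA against DSS (-0.76). Of the trophic genes 14.3% were called in UA+DSS against DSS, beside 18.7% of all genes. The share in DSS+UA against DSS was 21.4%, beside 7.54%. Nrg1 and Ednrb are made by stromal cells as well, and the 4 fibroblast genes, all raised in DSS against Con, summed to between 491.3 and 785.6 CPM in Con and to between 1634.1 and 3186.8 CPM in DSS. Their part in these results was not tested. Gdnf itself was not called in these 3 comparisons and ranged from 0.843 to 5.03 CPM over the 12 libraries.

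Of 20 receptors for the transmitters, 16 were tested. In each comparison below, 18.8% of these were called. The shares of all genes were 26.5% in DSS against Con, 18.7% in UA+DSS against DSS and 7.54% in DSS+UA against DSS. The substance P receptor Tacr1 was raised in DSS against Con, from 1.29, 1.55 and 4.44 CPM to 12.6, 17.0 and 11.6 CPM (log2 fold change 2.495 ± 0.74 SE, adjusted p = 0.0305 in edgeR), without overlap. The VIP receptor Vipr1 (-0.92), which epithelium also makes, and the galanin receptor Galr2 (-1.23) were lowered. In UA+DSS against DSS 3 were raised, Vipr1 (0.93), Galr2 (1.41) and Npy2r (2.64), a receptor for neuropeptide Y. In DSS+UA against DSS Vipr1 was raised (0.83), and Gucy1a1 (-1.26) and Gucy1b1 (-1.20), the subunits of the nitric oxide receptor, which are abundant in smooth muscle, were lowered. Beside them all 10 smooth muscle genes had the lower fitted level, with a median of -0.80 and none called, and their part was not tested.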

How the data were processed

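Total RNA of mouse colon was sequenced by the authors from 12 TruSeq libraries on a HiSeq-2500. The RNA kit differs between the labels (Trizol) and the methods (RNeasy). The submitters' processing notes name FastQC, HISAT2, Cuffdiff and GRCm38, with no versions. The deposited files hold whole-number read counts per gene, not normalized, 1 library per file. The methods credit HISAT2, an aligner, with the gene read counts, and whether strand was used is not given in the sources used here. Of 54532 gene IDs, 123 had no symbol (0.0297% of counts) and were tested unnamed.

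The counts were filtered by expression (17658 genes kept, 99.8% of counts), scaled by TMM and tested with edgeR 4.0.16 (quasi-likelihood, robust, all 12 samples, 1 term per group) in R 4.3.3, with Benjamini-Hochberg adjustment over all genes tested. SE is the absolute log2 fold change over the root of the test statistic. Log2 CPM used a prior count of 2. CPM per kilobase used GENCODE exon lengths on GRCm38, and promoter windows came from RefSeq. The biological coefficient of variation was 0.352. On simulated data with 200 planted genes among 17658, DSS against Con recovered 63.5% at a log2 fold change of 2 and 0% at 1. In the data 26.5% of all genes were called, so the Benjamini-Hochberg adjustment was stricter in the simulation. These shares therefore do not give the recovery in the data. Alternatives used limma 3.58.1, DESeq2 1.42.0, other scalings and filters, a replicate block, Myh11 or the position score as a covariate, and each library left out.

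Libraries of a group differed beyond sampling noise (chi-square per degree of freedom at least 21.3), so each counted as 1 replicate. No source read here says which mouse each library came from, so the p-values measure only the spread between these samples, which may in part be technical.

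The members and gene lists were chosen with earlier results of these data known. All 31 members were described by role. Values in every library were given for members called in DSS against Con, or in either treated group against DSS, and for Elavl4, Nos1, Chat, Vip, S100b, Sox10 and Myh11. From the other lists, called genes with the 3 smallest p-values per list were named, and cell-type markers beside the results they moved with. Artn, Gdnf and the per-library values of other genes were chosen after their values were seen.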

Additional observations from a re-analysis of the deposited data

Results flagged for a closer look

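In the comparison between the times of treatment, 4 members differed between UA+DSS and DSS+UA by a test of the difference itself. The log2 difference, UA+DSS against DSS+UA, was -1.88 for Tac1, 1.85 for Calb2, 2.005 for Gfra1 and 2.01 for Cdh19. Each was called in edgeR with all 12 libraries, Tac1 and Cdh19 in 13 of 22 alternatives, Calb2 in 10 and Gfra1 in 9. None was called with Myh11 or the position score as a covariate, where 0.00566% and 0% of all genes were called beside 16.8% without a covariate. None was called without UA+DSS 1, 2 or 3 either, where the shares of all genes called were 7.9%, 3.07% and 9.04%. Tissue position, as the score gives it, and the time of treatment cannot be told apart in these groups, whose scores did not overlap. In the same comparison 6 of the 10 smooth muscle genes were called, all higher in UA+DSS, and their part was not tested.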

How the results depend on the processing

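Counts of members called moved in every comparison but UA+DSS against Con. Brackets give the share of all genes called in the same fits. DSS against Con gave 4 (26.5%), with 1 under no filter (11.6%), 7 with limma-voom (26.1%) and 10 with DESeq2 (32.3%). It gave 0 to 8 when a library was left out (15.8% to 25.7%). UA+DSS against DSS gave 1 (18.7%), with 0 to 1 when a library was left out (1% to 22.7%). It gave 0 under library size only (17.3%), no filter (7.3%) and limma-voom (17.5%). At least 10 counts in every sample, which does not test Npy, gave 0 as well (22.2%). With Myh11 (5.03%) or the position score (0.017%) as a covariate the count was also 0. DSS+UA against DSS gave 0 (7.54%), with 2 under DESeq2 (17.7%) and 0 to 8 when a library was left out (0.137% to 10.1%). DSS+UA against Con gave 1 (18.1%), with 3 under DESeq2 (26.4%) and 0 with Myh11 (0.0623%) or the position score (12.3%) as a covariate. It gave 1 to 2 when a library was left out (5.81% to 22.4%). UA+DSS against DSS+UA gave 4 (16.8%), with 2 under library size only (13.2%), 1 under no filter (6.69%) and 2 with only the 2 groups compared (26.1%). It gave 0 with Myh11 (0.00566%) or the position score (0%) as a covariate. When a library was left out it gave 0 to 8 (3.07% to 21.5%). Neurons minus glia in DSS+UA against DSS went from 0.22 to -0.19 when Gfra1 was counted with neurons and Gfra3 with glia. Where a library was left out fewer samples were tested, and the cause was otherwise not tested. Over single members in the comparisons of DSS with Con and of each treated group with DSS, 1819 values kept direction and side of the threshold, 46 became weaker, 37 became stronger and 58 changed direction, none of which was called with either sign. The log2 fold changes behind the last count follow. Npy and Chat, with 22 counts at most in a library, are limited by depth.

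In DSS against Con, with the position score as a covariate the value became -0.0078 for Nefm. With Myh11 as a covariate the value became 0.032 for S100b. Over the libraries left out, log2 values went for Stmn2 from -0.11 to 0.80, Nefm from -0.29 to 0.29, Calb2 from -0.056 to 0.63 and S100b from -0.67 to 0.030. In UA+DSS against DSS, under library size scaling alone the value became -0.079 for Elavl3, -0.075 for Elavl4 and -0.062 for Syp. Under the replicate block the value became -0.00013 for Elavl3. With Myh11 as a covariate the value became -0.15 for Elavl3, -0.71 for Elavl4, -0.23 for Scg2, -0.10 for Syp, -0.0029 for Cdh19, -0.083 for Gfra1 and -0.048 for Gfra3. With the position score as a covariate the value became -0.50 for Elavl4, 0.43 for Stmn2, 0.080 for Nefl, 0.27 for Nefm, -0.19 for Syp, -0.34 for Chat and -0.65 for Gfra1. With limma-voom the value became -0.058 for Elavl4 and 0.16 for Gal. Over the libraries left out, log2 values went for Elavl3 from -0.21 to 0.45, Elavl4 from -0.26 to 0.35, Snap25 from -0.25 to 0.20, Syt1 from -0.33 to 0.068, Nefl from -0.45 to 0.071, Scg2 from -0.010 to 0.36, Gap43 from -0.13 to 0.079, Syp from -0.093 to 0.13, Ret from -0.40 to 0.089, Nos1 from -0.52 to 0.18, Gal from -0.68 to 0.81 and Gfra3 from -0.17 to 0.46. In DSS+UA against DSS, with Myh11 as a covariate the value became 0.0039 for Elavl4, 0.31 for Nefm, 0.017 for Nos1, 0.049 for S100b and 0.071 for Gfap.

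The replicate numbers are shared between groups. Deviations of same-numbered libraries correlated between -0.216 and 0.187, with a median of 0.041. Those of differently numbered libraries correlated between -0.289 and 0.240, with a median of -0.023. These ranges overlap and do not settle whether the numbers pair the samples. With the replicate block, 3 members were called for DSS against Con, beside 24.8% of all genes. Against DSS, 0 were called for UA+DSS and 0 for DSS+UA, beside 17.8% and 3.13%. Against Con, 0 were called for UA+DSS and 1 for DSS+UA, beside 0.00566% and 16.5%. Between the treated groups 1 was called, beside 17%.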
